A study of Drosophila melanogaster with 6 samples.

Results

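The receptors for the biogenic amines serotonin, dopamine and octopamine were followed in RNA-seq values of Drosophila melanogaster larval brains. The members were given by gene identifier: 5-HT1A (CG16720), 5-HT1B (CG15113), 5-HT2A (CG1056) and 5-HT7 (CG12073) for serotonin, Dop1R1 (CG9652), Dop1R2 (CG18741), Dop2R (CG33517) and DopEcR (CG18314) for dopamine, and Oamb (CG3856) for octopamine. All 9 genes were found, with 24 transcripts, among 14012 genes and 21081 transcripts. Brains of wandering larvae, kept at 25 °C with 35 g of yeast in each liter of food, were pooled in 6 samples, 2 per group. Every group carried the E347-GAL4 driver on a w X chromosome. Control larvae carried it over w1118 and held no UAS transgene (pools of 100 and 86 brains). Activation larvae carried it over yw with UAS-NachBac, which encodes a bacterial sodium channel that raises excitability, listed on the third chromosome (100 and 97 brains). In the ablation group UAS-ShiDN, coding for a dominant-negative dynamin, was present on the yw X chromosome and on the second chromosome (100 and 91 brains). Transgene expression is thus limited to the cells of the E347 driver, whereas the RNA comes from the whole brain, and the control differs from the other groups in its X chromosome background as well as in the transgene. In such bulk RNA, fewer cells of a type and less RNA per cell cannot be told apart.

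Amine receptors are G protein-coupled receptors that set the excitability and plasticity of the neurons that carry them. The 5-HT1A, 5-HT1B and Dop2R proteins couple to inhibition of adenylyl cyclase, and 5-HT7, Dop1R1 and Dop1R2 to its stimulation. 5-HT2A and Oamb raise intracellular calcium, and DopEcR binds both dopamine and the moulting hormone ecdysone. In the fly brain these receptors act in learning, feeding, sleep and locomotion, with Dop1R1, Dop1R2 and Oamb prominent in the mushroom body.

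The values are FPKM (fragment counts scaled to transcript length and library size), 1 value per group in each of the authors' 3 Cuffdiff tables, which name the activation group induction. There is no value per sample, so no replicate spread stands beside a level, and the depth of each sample is unknown. A gene sum is the total FPKM over a gene's transcripts. Neuronal markers were present in every group. The gene sums of elav, nSyb, Syt1, brp, Syx1A and para added up to 283 FPKM in control against 330 in ablation in their table. In the activation table they added up to 275 FPKM in control against 308 in activation, and directly to 310 FPKM in activation against 326 in ablation. In each comparison 5 of 6 were higher in the second group of the pair, and Syx1A was lower. Marker sums of tissues outside the brain differed between the groups, with those of the midgut and the fat body furthest apart. The sum over 7 midgut markers was 7.21 FPKM in control against 1237 in ablation, with 7 of 7 genes higher and Jon74E, betaTry and alphaTry listed at 0 in control. In the activation table it was 7.04 FPKM in control against 2.82 in activation, with LysB, LysD, epsilonTry, betaTry and alphaTry listed at 0 in activation. The sum over 6 fat body markers was 137 FPKM in control against 407 in ablation, and 134 FPKM in control against 44.7 in activation. Between activation and ablation directly, the midgut sum was 2.83 and 1213 FPKM and the fat body sum 44.9 and 399 FPKM, with 5 called transcripts in each list. The 6 muscle markers summed to 65.6 and 74.6 FPKM in the ablation table, with 4 higher and 2 lower. In the activation table they summed to 63.8 and 33.1 FPKM, with 2 higher and 4 lower. Directly, activation had a muscle sum of 33.2 FPKM against 73.2 for ablation, with 6 of 6 higher, Mhc by a log2 change of only 0.01. Lists of haemocyte, ring gland and eye disc markers held both higher and lower genes in every comparison. Within the brain, 5 neuroblast markers summed to 254 and 260 FPKM in the ablation table and to 248 and 313 FPKM in the activation table, with 5 of 5 higher in activation, and 5 of 5 were lower in ablation than in activation. The 6 glial markers summed to 725 and 866 FPKM, to 706 and 636 FPKM, and directly to 640 and 853 FPKM. They did not move together, with 4 higher and 2 lower, 3 and 3, and 4 and 2 in these comparisons. The part of these tissues and cell types in the receptor values was not tested.

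All 9 receptors were expressed at low levels, beside a control median of 23.7 FPKM among genes with at least 1 FPKM in control. The gene sums of the receptors in control ran from 0.488 to 9.96 FPKM, and 7 of 9 reached 1 FPKM. These sums lay between the 38.6th and the 56.9th percentile of all genes, including those at 0. DopEcR was the highest, followed by Dop2R, 5-HT1A, Dop1R2, Oamb, 5-HT1B, 5-HT7, Dop1R1 and 5-HT2A. DopEcR was also the highest in activation and in ablation. In activation all 9 reached 1 FPKM, and in ablation 8 of 9 did, with 5-HT2A below it. Fewer genes of the whole series met that limit in control too: 8186 against 8637 for ablation, and 8168 against 8633 for activation. Whether this bears on the receptor transcripts listed at 0 in control was not tested. Neighbours in this order often lay close: 5-HT1A was at 1.11 times Dop1R2 in control and at 1.01 times Dop2R in ablation, and Oamb was at 1.00 times Dop1R2 in activation. Without values per sample, no pair of neighbours can be set against replicate spread.

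**Figure D1:**
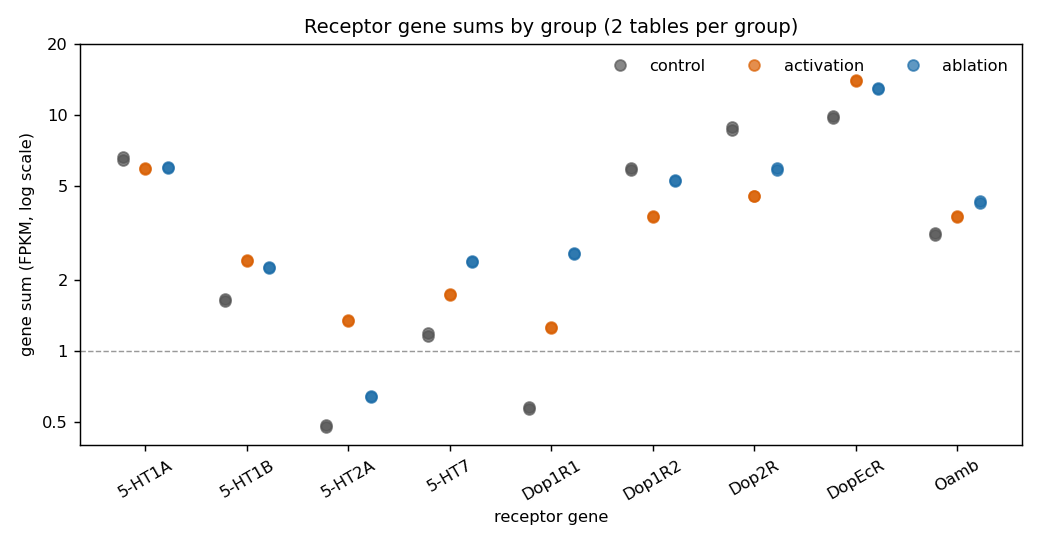
Gene sums in FPKM (log axis) of the 9 receptors in control, activation and ablation; each group has 2 points, 1 from each of the 2 tables that hold it, and the dashed line marks 1 FPKM. DopEcR is the highest in each group, and 5-HT2A and Dop1R1 are under 1 FPKM in control.

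No receptor transcript passed Cuffdiff's test in any comparison. Of 24 transcripts 14 were tested in ablation against control, 15 in activation against control and 15 in ablation against activation. Of the rest, 8, 7 and 7 were left untested for low coverage (NOTEST), and 2 in each comparison had the status LOWDATA. Called means a deposited q (the p adjusted over the tested transcripts of a table) of at most 0.05. In ablation against control 0 of 14 receptor transcripts were called, where 0.154% of all tested transcripts were. In activation against control 0 of 15 were called, where 0% of all were, and in ablation against activation 0 of 15, where 0.37% were. At an unadjusted p under 0.05 the counts of receptor transcripts were again 0, 0 and 0, beside 2.05%, 3.05% and 3.21% of all tested transcripts, shares that amount to less than 1 of the receptor transcripts tested. The smallest p of a receptor transcript in the authors' deposited tables was 0.179 for Oamb RC in ablation against control, 0.105 for 5-HT1B RA in activation against control and 0.247 for 5-HT2A RB in ablation against activation.

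Transcripts at the level of the receptors were called about as often as all transcripts. Tested receptor transcripts had a higher group value between 1.30 and 10.9 FPKM in ablation against control, and 4099 tested transcripts lay in that range, of which 5 (0.122%) were called beside 0.154% of all. In activation against control the range was 1.04 to 13.6 FPKM, with 0 of 5228 called. In ablation against activation the range was 1.05 to 13.7 FPKM, with 22 of 5731 (0.384%) called beside 0.37% of all. At an unadjusted p under 0.05 the shares in the ranges were 2.39%, 2.05% and 3.28%, beside 2.05%, 3.05% and 3.21% of all. All 5 and all 22 called transcripts had a group listed at 0. These ranges were chosen after the values were seen. Cuffdiff's statistic was taken to set a change against its estimated error. It was under 1 in size for the 13 receptor transcripts that have one in ablation against control and the 15 in ablation against activation. In activation against control 1 of 13 exceeded 1, DopEcR RB with 1.29. Where a group was near 0 the statistic did not follow the p. Oamb RC had a statistic of 0.0231 in ablation against control, with the smallest receptor p there in the authors' deposited table.

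The serotonin receptors that lower cAMP, 5-HT1A and 5-HT1B, lie near each other on chromosome arm 2R. 5-HT1A is at chr2R:14954664-15009463 (build dm3, counted from 1, the locus of the authors' table, which also holds the ionotropic receptor gene Ir56a at 0 FPKM in every group). Its gene sum was 6.63 FPKM in control, 5.92 in activation and 6.04 in ablation, the narrowest range of the 9 receptors as a ratio. Its transcripts were less even. RA had 3.75 FPKM in control against 0.412 in ablation, while RB had 2.88 FPKM in control against 5.63 in ablation. In the activation table RA had 3.65 and 0.801 FPKM and RB 2.81 and 5.12 FPKM. RB was thus 93.2% of the sum in ablation and 86.5% in activation, against RA with 56.6% in control. Cuffdiff gave RA the status LOWDATA, for loci too complex or too shallowly covered to test, so this shift has no test. RB alone had p = 0.443 in ablation against control and p = 0.483 in activation against control in the authors' deposited tables. Without RA, 5-HT1A has a log2 change of 0.77 in ablation and 0.68 in activation, in place of -0.12 and -0.11.

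5-HT1B, at chr2R:14909830-14916482 (dm3), had 1.67 FPKM in control, 2.41 in activation and 2.28 in ablation. In control RC alone made up the sum, and RA was listed at 0. RA had 1.74 FPKM in activation against 0.630 in ablation. RC had 0.672 FPKM in activation against 1.65 in ablation. The RA difference of activation from control had a p of 0.105 and a q of 0.915 in the authors' deposited table, the smallest p of all receptor transcripts in the 3 comparisons. No fold is given for it, since control is listed at 0.

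5-HT2A, the calcium-coupled serotonin receptor at chr3R:438597-459026 (dm3), was the lowest of the 9 in control and in ablation. Its gene sum was 0.488 FPKM in control, 1.34 in activation and 0.649 in ablation, so activation had the highest value. RB had 0.477 FPKM in control against 1.04 in activation (p = 0.530), and 1.05 FPKM in activation against 0.135 in ablation (p = 0.247), by the authors' deposited tables. RD was listed at 0 in control, with 0.302 FPKM in activation against 0.512 in ablation, and was not tested. RB was the one transcript of this gene that was tested, and only in the comparisons that include activation.

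5-HT7, the serotonin receptor that raises cAMP, lies at chr3R:26794864-26842569 (dm3) and has 1 transcript. Its locus also holds CG31007 and CG31008, which were at 0 FPKM apart from CG31007 with 0.291 FPKM in activation. 5-HT7 had 1.19 FPKM in control, 1.74 in activation and 2.42 in ablation. The statistic was 0.45 in ablation against control (p = 0.557) and 0.26 in activation against control (p = 0.697) in the authors' deposited tables.

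Of the D1-like dopamine receptors, Dop1R1 had its lowest value in control and Dop1R2 its highest, and both were higher in ablation than in activation. Dop1R1, at chr3R:10003005-10040409 (dm3) with 1 transcript, is the receptor through which dopamine drives aversive and appetitive learning in the mushroom body. It had 0.581 FPKM in control, 1.26 in activation and 2.61 in ablation. Its log2 change of 1.19 in ablation against control on the log2(FPKM + 1) scale was the largest of any receptor in the 3 comparisons. It was 1.99 with a pseudocount of 0.1 and 0.45 with one of 5, and the authors' deposited table gave a statistic of 0.82, p = 0.311 and q = 0.974. In ablation against activation the log2 change of the gene sum was 0.66, and the p in the authors' deposited table was 0.270. Dop1R2, the other D1-like receptor, which acts in the loss of memories, lies at chr3R:25456026-25485706 (dm3). Its gene sum was 5.99 FPKM in control, 3.70 in activation and 5.34 in ablation, so activation had the lowest value. RB was the transcript with the lower value there, with 3.70 FPKM in control against 1.10 in activation (p = 0.325), and 3.64 FPKM in ablation (p = 0.436 against activation) in the authors' deposited tables. RA had 2.19 FPKM in control, 2.61 in activation and 1.66 in ablation.

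Dop2R, the D2-like receptor and an autoreceptor of dopamine neurons, lies on the X at chrX:19898715-19922226 (dm3). Its gene sum was 8.92 FPKM in control, 4.53 in activation and 5.96 in ablation. Control was the highest, and the log2 changes of -0.81 in activation and -0.51 in ablation were the lowest of the 9 receptors in these comparisons, which share their control samples. Since the X chromosome background of control also differs, background and transgene cannot be told apart here. The transcripts were spread differently in control. RA was 79.2% of the control sum with 7.07 FPKM, and it had 0.556 FPKM in ablation (p = 0.379) and 0.000110 FPKM against 6.87 FPKM in activation (p = 0.202) in the authors' deposited tables. RE was listed at 0 in control and had 2.49 FPKM in activation (p = 0.124) and 2.03 FPKM in ablation (p = 0.193) by the authors' deposited tables. RB had 1.85 FPKM in control, 2.05 in activation and 3.37 in ablation. RC and RD were at or near 0 in every group.

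DopEcR, which answers dopamine and ecdysone, lies at chr3L:4367640-4380376 (dm3). Its gene sum was 9.96 FPKM in control, 13.9 in activation and 13.1 in ablation, with log2 changes of 0.48 and 0.36. RB carried the difference: it had 6.17 FPKM in control against 10.9 in ablation (p = 0.304), and 6.02 FPKM in control against 13.6 in activation (p = 0.118, q of 0.915), as the authors' deposited tables give them. RA had 3.71 FPKM in control, 0.264 in activation and 2.11 in ablation, so RB was 61.9% of the sum in control and 97.7% in activation. The receptor for ecdysone itself, EcR, had a gene sum of 20.8 FPKM in control against 22.4 in ablation, and 20.2 FPKM in control against 28.8 in activation. Its partner usp had 38.1 and 36.3 FPKM, and 37.1 and 27.8 FPKM. None of their 5 tested transcripts was called in any comparison.

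Over the log2 changes of the 3 tables, the genes closest to DopEcR among 7950 genes with at least 1 FPKM in each group were Strump at a distance of 0.013, su(Hw) at 0.017 and dmGlut at 0.017. The distance rests on 3 group values, and 565 genes (7.11%) lay within 0.25 of DopEcR.

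Oamb, the octopamine receptor that resembles alpha-adrenergic receptors of mammals and is needed for ovulation and for reward learning, lies at chr3R:16514740-16540263 (dm3). Its gene sum was 3.17 FPKM in control, 3.72 in activation and 4.32 in ablation. RA had 2.52 FPKM in control, 2.20 in activation and 1.61 in ablation. RC had 0.0000730 FPKM in control against 1.30 in ablation (p = 0.179), and 1.16 FPKM in activation (p = 0.208) in the authors' deposited tables. RA was therefore 79.5% of the control sum, 59.3% of the activation sum and 37.4% of the ablation sum.

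**Figure D2:**
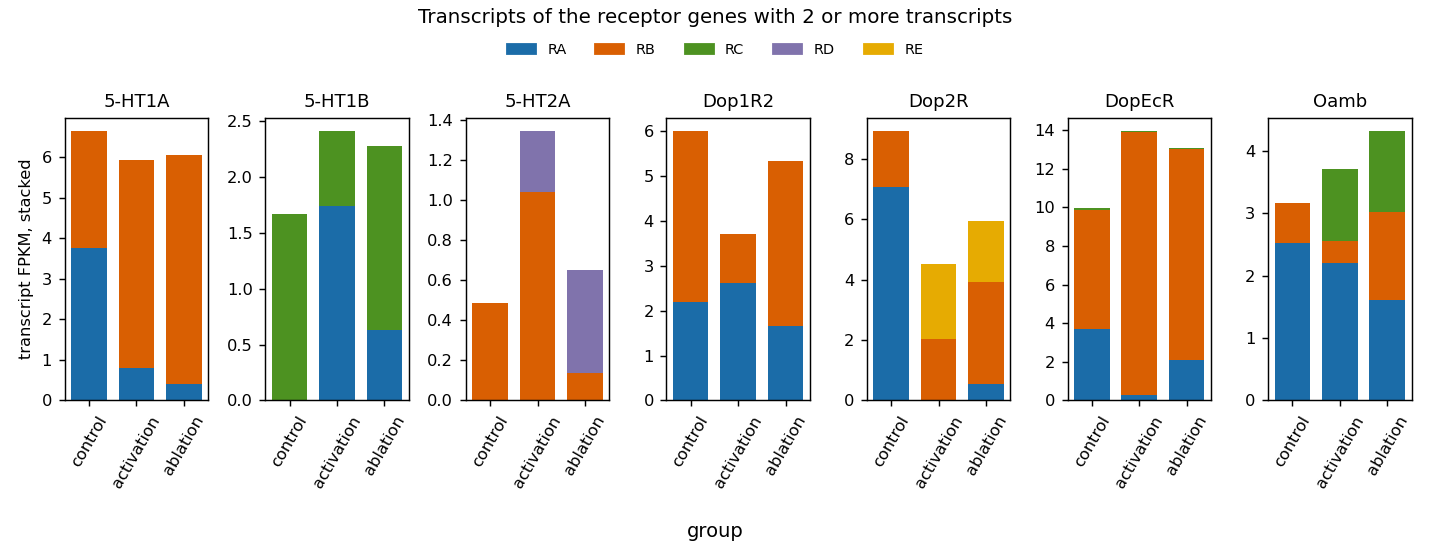
Stacked transcript values in FPKM (each gene on its own scale) of the 7 receptors with 2 or more transcripts, by group; control and ablation are from the table of those groups and activation from the table with control. RA is the largest part of 5-HT1A and Dop2R in control and not in activation or ablation, and none of these transcripts was called.

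Read together, the transcript with the highest value differed between control and ablation for 2 of the 6 receptors with 2 or more transcripts and at least 1 FPKM in both groups, 5-HT1A and Dop2R. Among all such genes it differed for 24.8% (710 of 2858). Between control and activation it differed for 4 of 6, 5-HT1A, 5-HT1B, Dop1R2 and Dop2R, beside 25.1% of all. Between activation and ablation it differed for 3 of 6, 5-HT1B, Dop1R2 and Dop2R, beside 18.0% of all. Among genes under 20 FPKM in both groups, a limit chosen after the values were seen, the shares were 30.3%, 29.5% and 25.2%. The 2 comparisons with control share their control samples, and these counts have no test.

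In ablation against control 6 of 9 gene sums were higher and 3 lower, with a median log2 change of 0.30, while 56.7% of the 8803 genes with at least 1 FPKM in 1 of the groups were higher, with a median of 0.11. The 6 include 5-HT2A, which was under 1 FPKM in both groups. In activation against control 6 were higher and 3 lower, with a median of 0.34, beside 56.9% and 0.11. 5-HT1A, Dop1R2 and Dop2R had the lower values in each of these comparisons, though 5-HT1A does so only with its RA transcript included. In ablation against activation the median was 0.15, beside 0.01 for all genes, of which 51.1% were higher. There 5-HT1B, 5-HT2A and DopEcR were lower in ablation, 5-HT1A had 5.958 FPKM in activation against 5.959 in ablation, and 5-HT7, Dop1R1, Dop1R2, Dop2R and Oamb were higher. With 5-HT1A counted as higher by that small margin, 6 were higher and 3 lower, and centred on the median of all genes 5 were higher and 4 lower. The 6 neuronal markers had medians of 0.36 in ablation against control and 0.21 in activation against control. Their median was 0.11 in ablation against activation, and 5 were higher and 1 lower in each comparison. The summed FPKM of the 9 receptors was 38.6 in control and 42.7 in ablation, and 37.6 in control and 38.6 in activation. The 4 dopamine receptors took the most of it, with 25.5 FPKM in control against 27.0 in ablation, and the 4 serotonin receptors had 9.98 and 11.4 FPKM. In the activation table the dopamine receptors summed to 24.8 FPKM in control against 23.4 in activation, and the serotonin receptors to 9.73 and 11.4 FPKM.

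**Figure D3:**
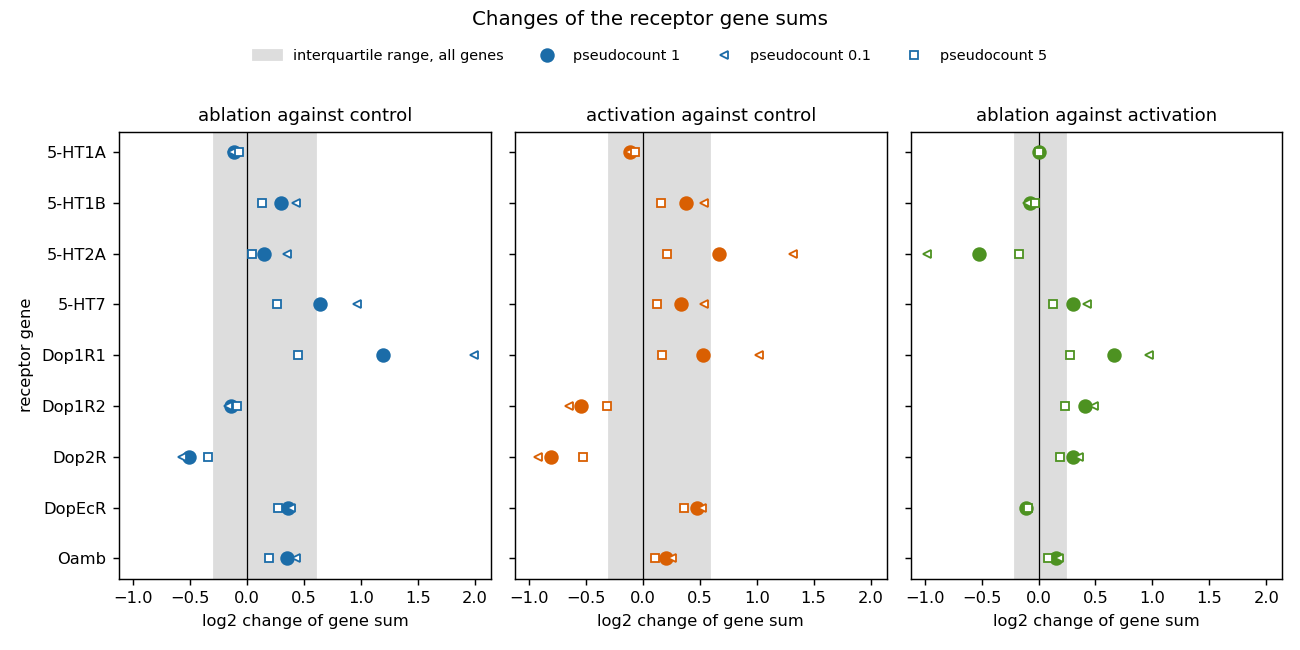
Log2 changes of the 9 receptor gene sums in the 3 comparisons with pseudocounts of 1, 0.1 and 5 FPKM; the grey band is the interquartile range of all genes with at least 1 FPKM in 1 group. With a pseudocount of 1, Dop1R1 is the highest in ablation against control (1.19) and Dop2R the lowest in activation against control (-0.81), and no transcript of either was called.

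The other amine receptors, 8 genes of the octopamine, tyramine and serotonin families, also had no called transcript. Their tested transcripts numbered 8, 5 and 9 in the 3 comparisons, where 0.154%, 0% and 0.37% of all tested transcripts were called. Of the 8 genes 6 were higher and 2 lower in ablation against control, 5 higher and 3 lower in activation against control, and 5 higher and 3 lower in ablation against activation. Among all genes with at least 1 FPKM in 1 group, 56.7%, 56.9% and 51.1% were higher. TyrR and TyrRII were under 1 FPKM in every group and are still counted among the 8. Octbeta2R, an octopamine receptor that raises cAMP, had 10.5 FPKM in control against 2.65 in ablation (p = 0.169), and 10.2 FPKM in control against 2.70 in activation (p = 0.145) in the authors' deposited tables. Octbeta3R, of the same class, had gene sums of 6.05 FPKM in control against 4.31 in ablation, while its RF transcript had the opposite order. RF was listed at 0 in control and had 1.15 FPKM in ablation (p = 0.159 in the authors' deposited table). 5-HT2B, held in the tables as the gene models CG7994 and CG8007, had 0.975 FPKM in activation against 2.16 in ablation.

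Enzymes and transporters that make and move the amines gave 12 higher and 2 lower of 14 in ablation against control, with 0.42 as their median log2 change and none of 17 tested transcripts called. In activation against control 8 were higher and 6 lower, and in ablation against activation 10 were higher and 4 lower, again with 0 called. Among all genes with at least 1 FPKM in 1 group, 56.7%, 56.9% and 51.1% were higher in the 3 comparisons. The 14 also count ple and Hn where both groups were under 1 FPKM, in ablation against control and activation against control respectively. The medians of all genes were 0.11, 0.11 and 0.01, and 0.154%, 0% and 0.37% of all tested transcripts were called. The smallest p-values came from octopamine synthesis and vesicle loading. Tbh, which makes octopamine from tyramine, had 5.01 FPKM in activation against 9.14 in ablation (p of 0.0930 in the authors' deposited table). Tdc2, the neuronal enzyme that makes tyramine, had 2.62 and 7.12 FPKM (p = 0.114), and Vmat RE, of the vesicular amine transporter, had 10.4 and 14.9 FPKM (p = 0.110), by the authors' deposited table. The q was 0.999 for each of the 3 in the authors' deposited table.

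Downstream of the receptors, 20 genes of G proteins, adenylyl cyclase, protein kinase A, phospholipase C and receptor desensitisation had gene sums from 4.64 to 768 FPKM in control. In ablation against control 12 were higher and 8 lower, in activation against control 12 and 8, and in ablation against activation 9 and 11. Among all genes 56.7%, 56.9% and 51.1% were higher. None of the 56, 54 and 59 tested transcripts was called, beside 0.154%, 0% and 0.37% of all tested transcripts. At an unadjusted p under 0.05, 1 transcript was higher in ablation against control, and 1 was higher and 1 lower in each other comparison. Of all tested transcripts 2.05%, 3.05% and 3.21% were under that limit. Gprk1, a kinase that phosphorylates active G protein-coupled receptors, had 51.0 FPKM in control against 124 in activation (p = 0.0016, q of 0.675), and 52.3 FPKM in control against 99.2 in ablation (p = 0.0351, q of 0.974), by the authors' deposited tables. The adenylyl cyclase rut, which acts in memory, had 19.6 FPKM in control against 11.2 in activation (p = 0.0415, q of 0.915 in the authors' deposited table). Pka-R1 RF, a transcript of a regulatory subunit of protein kinase A, had 3.84 FPKM in activation against 22.2 in ablation (p = 0.0191, q of 0.999 in the authors' deposited table), while RJ had the opposite order with 46.1 and 16.4 FPKM (p = 0.0268 in the authors' deposited table), and the gene sums were 61.8 and 67.5 FPKM.

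**Figure D4:**
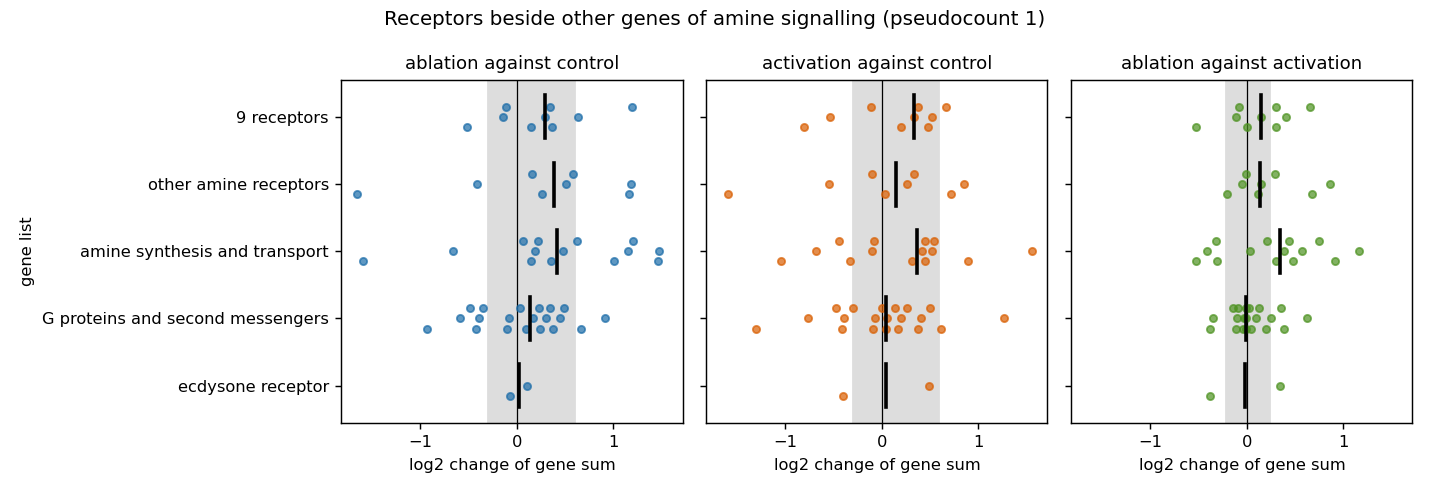
Log2 changes of gene sums (pseudocount of 1 FPKM) of the 9 receptors and of the other lists of amine signalling in the 3 comparisons; each point is a gene, the black bar is the list's median, and the grey band is the interquartile range of all genes with at least 1 FPKM in 1 group. The receptor medians are 0.30, 0.34 and 0.15, beside medians of 0.11, 0.11 and 0.01 for all genes, and the band shows the spread of single genes, not of medians. The 6 neuronal markers, not plotted, have medians of 0.36, 0.21 and 0.11.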

How the data were processed

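RNA-seq values of pooled larval brains were used from 6 samples in 3 groups of 2. Per the submitters' processing notes, TopHat2, Cufflinks and Cuffdiff were run on build dm3; their versions were not given in the sources used here. Deposited by the authors were 3 Cuffdiff tables, each with 1 FPKM value per group, so depth is unknown and no replicate spread exists. The log2 fold change, the test statistic (a score) and the p-value and q-value are also as the authors deposited them. Calls are transcripts with status OK and q of at most 0.05. The groups hold 2 pools each, and nothing says that these came from separate crosses, so p-values may measure technical spread.

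Gene sums add FPKM over transcripts, and changes are log2((FPKM + 1)/(FPKM + 1)), which understates changes of low genes. Genes were named from the RefSeq table (Release 6) by CG number, used for names and for the gene lengths below. Locus starts were taken to count from 0 in the tables. Of 12903 genes compared, end minus start equals the reference length for 770, against 146 for end minus start plus 1. The other genes matched neither. Starts are given here from 1. The members and lists were chosen with earlier results of these data known. Named genes are the 9 members, up to 3 genes per pathway list with the smallest deposited p, and the 3 genes nearest to the most abundant member. The Benjamini-Hochberg adjustment was tested on simulated data. The scripts used pandas 2.3.3 and numpy 2.4.6 under Python 3.11.15, scipy 1.17.1 for the statistic, and matplotlib 3.10.9 for plots.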

Additional observations from a re-analysis of the deposited data

How the results depend on the processing

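The count of called receptor transcripts stayed at 0 in the 3 comparisons with a q threshold of 0.1, with unadjusted p under 0.05, with a minimum of 1 FPKM, with adjustment over the 3 tables together and with normal p-values from the statistic. The smallest receptor p in Cuffdiff's test was 0.105, and an adjusted p cannot lie below its p. The largest receptor statistic was 1.29 in size, too small for a normal p under 0.05. Transcripts without a statistic, such as 5-HT1B RA, have no normal p. None of these settings could therefore have given another count. Medians of the receptor gene sums moved more. With a pseudocount of 5 they were 0.13 in ablation against control, 0.13 in activation against control and 0.084 in ablation against activation, and with 0.1 the median in activation against control was 0.52. Restricted to members of at least 1 FPKM, the medians moved by less than 1.5 times. Centred on all genes, the median in ablation against control was 0.19. With the highest transcript of the first group alone the medians were -0.037, -0.11 and -0.31, below 0 in all 3 comparisons. A transcript picked for a high value in the first group is favoured to be lower in the other by construction. Of 27 changes of single receptors, 23 moved by over 1.5 times with a pseudocount of 5, 7 with 0.1 and 7 after centring. A pseudocount cannot alter the sign of a change, so signs could differ only in the other settings. After centring 1 of these changes differed in sign (5-HT1A in ablation against activation, 0.00 to -0.01). Without LOWDATA transcripts, added after the values were seen, 3 moved and 2 differed in sign, both of 5-HT1A. No paired analysis was possible because the tables hold no value per sample, and for the same reason leaving out each replicate was not run.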
